A study of Mus musculus with 2 samples.

Results

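The 7 genes described here, B2m, H2-K1, H2-D1, Tap1, Tap2, Tapbp and Nlrc5, make the molecules that show peptides on MHC class I. They were taken from the deposited mRNA-seq count table by name, as the rows whose gene identifier equals 1 of these symbols. All 7 were found among 22556 genes. The cells belonged to iXist-ChrX-Dom, a line of mESCs (mouse embryonic stem cells) that is female, XX and carries 1 Dom/129S and 1 Cast chromosome set, and in which a TetOn promoter stands in place of the endogenous Xist promoter on the Dom/129S allele. They were untreated and collected at 0 h, after the mouse fibroblast feeders on which they grow had been removed by pre-plating. The data serve to rank genes by their level before Xist is induced. There is 1 group with 2 replicates and no second condition, so each gene was described by its level in both libraries and by the difference between them.

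An MHC class I molecule is a heavy chain paired with the light chain beta-2 microglobulin and loaded with a short peptide. The proteasome cuts peptides in the cytosol, the TAP transporter carries them into the endoplasmic reticulum, and tapasin holds an empty class I molecule at the transporter until a peptide fits. The regulator NLRC5 switches on class I genes together with RFX, CREB/ATF and NF-Y factors bound at their promoters, and interferons raise the whole set. Pluripotent stem cells are known for low class I at the cell surface.

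The 2 libraries held 23716499 and 20275749 counted fragments. A count of 0 allowed a level of up to 0.126 CPM (counts scaled to a library total of 1000000) in replicate 1 and 0.148 in replicate 2, from 3 counts of the total. All 10 embryonic stem cell markers, among them Pou5f1 and Nanog, were at or above 1 TPM (transcripts scaled to a sum of 1000000) in the mean of the libraries. They were uneven between the libraries, with 1129 counts for Pou5f1 in replicate 1 and 142 in replicate 2, and 2915 and 298 counts for Dppa5a. Of 12 fibroblast markers, 1 reached 1 TPM (Thy1) and Lum was at 0, and the whole list summed to 5.44 and 2.56 CPM in the respective libraries. Of 8 immune cell markers, 1 reached 1 TPM (Laptm5), while Ptprc, Lyz2 and Csf1r were at 0, and the list summed to 5.44 and 3.26 CPM. None of 6 neural precursor markers reached 1 TPM. The part of other cells in the levels below was not tested, and in such bulk samples fewer cells with a transcript and less transcript per cell cannot be told apart.

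The promoters of the light chain and of both classical heavy chains are shown because the same short motifs recur in them, in the same order. Each line gives the 250 bases before the transcript start from RefSeq (GRCm38.p6), 5′ to 3′ on the gene's own strand. B2m lies on the plus strand at chr2:122147437-122147686, H2-K1 on the minus strand at chr17:34000334-34000583, and H2-D1 on the plus strand at chr17:35262844-35263093. RefSeq gives more than 1 start for H2-K1, and its gene record reaches to 34000619. The window used is that of the start matching the deposited span, so it lies inside the longer record, and distances count from that start.
B2m: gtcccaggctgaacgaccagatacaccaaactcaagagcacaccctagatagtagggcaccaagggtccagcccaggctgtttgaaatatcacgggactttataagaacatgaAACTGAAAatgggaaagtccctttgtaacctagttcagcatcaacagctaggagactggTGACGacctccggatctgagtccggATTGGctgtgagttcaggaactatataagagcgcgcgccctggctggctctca
H2-K1: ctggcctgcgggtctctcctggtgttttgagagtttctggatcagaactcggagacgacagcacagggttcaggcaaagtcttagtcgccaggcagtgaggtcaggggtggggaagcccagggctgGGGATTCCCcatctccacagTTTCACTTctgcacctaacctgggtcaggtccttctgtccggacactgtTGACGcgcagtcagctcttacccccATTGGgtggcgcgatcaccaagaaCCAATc
H2-D1: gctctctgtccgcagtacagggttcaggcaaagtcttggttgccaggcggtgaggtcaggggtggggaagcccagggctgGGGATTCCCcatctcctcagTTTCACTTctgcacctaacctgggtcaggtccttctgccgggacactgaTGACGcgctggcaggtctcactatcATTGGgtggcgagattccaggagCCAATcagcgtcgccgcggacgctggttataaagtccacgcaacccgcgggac
Capitals mark 4 motifs searched on both strands. They are the core of the X2 box (TGACG), the Y box (CCAAT, the NF-Y motif), an interferon response core (AANNGAAA) and a kB-like site (GGGATTCCC). Overlapping matches were allowed.

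All 3 promoters held an interferon response core farther from the start than an X2 core, and a Y box nearer still. Counted from the transcript start to the first base of a match, the interferon core lay at -137 in B2m, -104 in H2-K1 and -150 in H2-D1. The X2 core lay at -78, -55 and -101 in the same order. The kB-like site was found in H2-K1 at -124 and in H2-D1 at -170, with no match in the B2m window. Of 32851 promoter windows of this length, 17.8% held the X2 core, 33.8% the Y box, 21.3% the interferon core and 0.301% the kB-like site, and 4 windows (0.0122%) held all 4. A gene with several starts has several windows, and the windows of H2-K1 and H2-D1 shown here are among those 4. Their windows were identical at 172 of 191 aligned bases (90.1%). The nonclassical heavy chain H2-Q4 matched H2-K1 at 166 of 190 bases (87.4%) and held all of these motifs but the kB-like site. The Tap1 window held an X2 core and a Y box without the interferon core, and the Tapbp window 2 Y boxes only. A match describes letters, not binding.

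Levels spread widely across the 7 genes. B2m was by far the highest, the heavy chain H2-K1 was second, and the transporter genes and Nlrc5 were at the foot. Levels are given as TPM, which scales counts by gene length and by the sum over all genes. The length is that of the whole transcribed span as in the deposited table, and values with exonic length, taken from the GENCODE M21 basic annotation, stand beside it. In the mean of both libraries 6 of 7 genes were at or above 1 TPM, where 52.7% of all 22556 genes were, but with exonic length 4 of 7 were, beside 12252 of the 22144 genes that have such a length. Their median was 7.34 TPM against 1.35 TPM over all genes with span length, and 2.96 against 1.85 TPM with exonic length. The count of 4 leaves out Tap2, part of whose exonic length lies outside its counted span, so its level there may be too low.

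**Figure D1:**
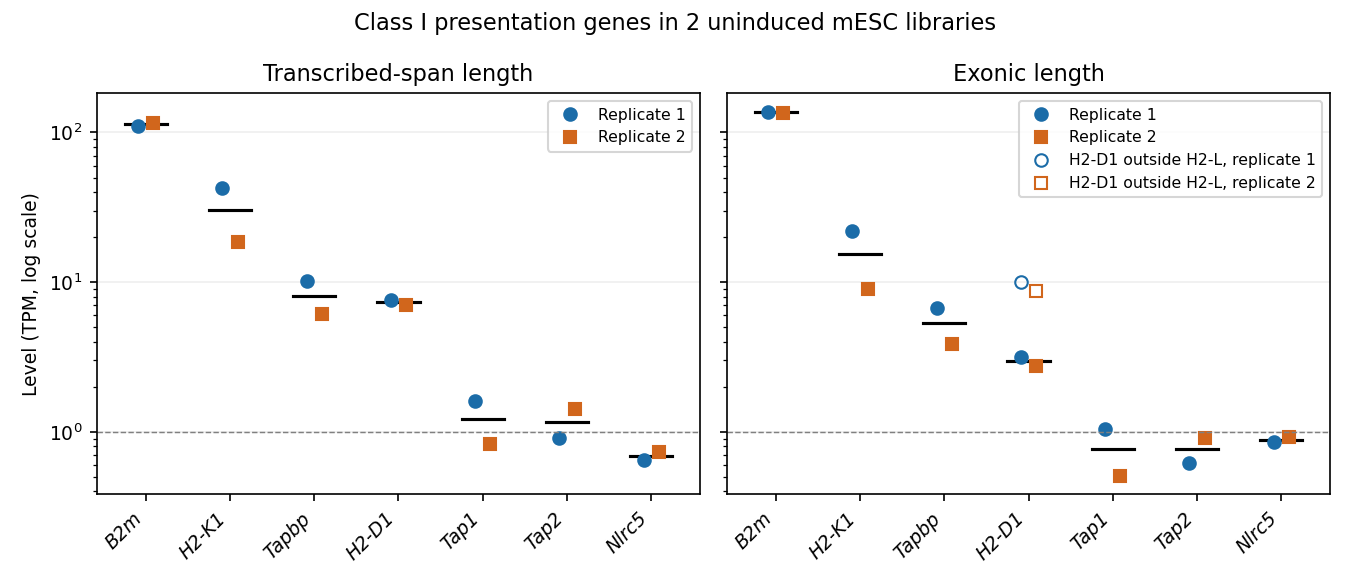
Level of each of the 7 genes in TPM (log axis) in replicate 1 (circles) and replicate 2 (squares), with transcribed-span length (left) and exonic length (right). Black bars are means of the 2 libraries, the dashed line is 1 TPM, and open symbols give H2-D1 over its exonic bases outside H2-L. B2m stood above 100 TPM in both libraries on either scale, and Tap1, Tap2 and Nlrc5 lay near 1 TPM.

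B2m encodes beta-2 microglobulin, the light chain shared by all classical and most class I-like molecules. The gene spans chr2:122147686-122153082 on the plus strand (mm10), with 860 exonic bases. Its 890 counts in replicate 1 and 706 counts in replicate 2 gave 111 and 116 TPM. The counting intervals of these levels, 104 to 119 TPM and 107 to 125 TPM (exact Poisson, 95%), overlap. The mean was 113 ± 3.26 TPM (SD, n = 2), and 137 ± 1.32 TPM with exonic length. That placed B2m at rank 1507, above 93.3% of all genes. The genes with the nearest levels in both libraries were Arl2bp (112 and 116 TPM), Arpc2 and Chmp5, at distances of 0.0055, 0.011 and 0.022 in log2(TPM + 1).

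The classical heavy chains were not counted alike, which bears on how their levels compare. H2-K1, the heavy chain of the K molecule, spans chr17:33996011-34000333 on the minus strand. It had 273 and 90 counts, or 42.6 and 18.4 TPM. The mean was 30.5 ± 17.1 TPM (SD, n = 2), or 15.5 ± 9.15 TPM with exonic length. Replicate 1 was the higher library on both scales, and the ranges of H2-K1 and B2m did not overlap.

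H2-D1, the heavy chain of the D molecule, spans chr17:35263093-35267497 on the plus strand. It had 50 and 35 counts, or 7.65 and 7.03 TPM, with a mean of 7.34 ± 0.438 TPM (SD, n = 2). The libraries were close, but the count covers only part of the gene. The annotation used for counting places another class I heavy chain gene, H2-L, on the same strand over 3609 of its 4405 bases (81.9%), and H2-L had 0 counts in both libraries. With the counting settings in the file header, a fragment that overlaps both genes is assigned to neither. Of 1737 exonic bases in the H2-D1 span, 661 lie outside H2-L.

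Per exonic base that could be counted, H2-D1 reached 10.06 TPM (replicate 1) and 8.76 TPM (replicate 2), against 3.16 and 2.75 TPM over its whole exonic length. Fragments that run across the edge of H2-L also go uncounted, and whether coverage of the countable bases equals that of the rest of the gene was not tested. With span length, H2-K1 was 5.56 times H2-D1 in replicate 1 and 2.62 times in replicate 2. Over the countable bases the ratio was 2.18 in replicate 1 and 1.03 in replicate 2, where the heavy chains were nearly level, and their values over the 2 libraries overlapped. The H2-D1 mean of 9.41 ± 0.921 TPM then also exceeded that of Tapbp. Of the 81-base words of the longest H2-D1 transcript, 6.33% occur in transcripts of other genes, most of them of H2-Q1. How many of these words lie in the countable bases was not examined.

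The level of the light chain was above that of the classical heavy chains. How many Cast fragments of the polymorphic heavy chains aligned is not known, so the ratios below may be too high. B2m was 5.48 times the sum of H2-K1 and H2-D1 in replicate 1 and 11.6 times in replicate 2 with exonic length, or 4.30 and 7.65 times with H2-D1 taken over its countable bases. With span length that ratio was 2.21 in replicate 1 and 4.55 in replicate 2. Against all listed H2 class I heavy chains except H2-L together, B2m was 2.15 times as high in replicate 1 and 3.74 times in replicate 2, again with exonic length. The ratio was higher in replicate 2 in each of these settings. With span length the ratio to this broader sum was 0.876 in replicate 1 and 1.52 in replicate 2, so the heavy chain sum exceeded B2m in replicate 1 on that scale only. That sum holds H2-D1 over its whole length, and H2-Q6, H2-Q7 and H2-T22, whose fragments could hardly be counted. It may thus be too low and its ratios too high.

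TAP is a heterodimer of TAP1 and TAP2, and both chains are needed to carry peptides. Tap1 spans chr17:34187555-34197225 and Tap2 chr17:34204478-34216321, both on the plus strand and separated by Psmb8. Tap1 had 23 and 9 counts, or 1.60 and 0.824 TPM (mean 1.21 ± 0.551, SD, n = 2). Tap2 had 16 and 19 counts, or 0.911 and 1.42 TPM (mean 1.17 ± 0.360, SD, n = 2). Tap1 was the higher of the pair in replicate 1 and Tap2 in replicate 2, with Tap1 to Tap2 ratios of 1.76 and 0.580. With exonic length both means fell under 1 TPM, to 0.770 ± 0.376 and 0.766 ± 0.208. Of the 3442 exonic bases of Tap2, only 2491 lie inside its counted span, so its exonic level may be too low. The levels of the 2 subunits were not distinguishable at this depth.

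Tapasin, the product of Tapbp, bridges TAP and the heavy chain and edits which peptides bind. Tapbp spans chr17:33919477-33929290 on the plus strand. It had 147 and 68 counts, or 10.098 and 6.13 TPM, respectively (mean 8.11 ± 2.80, SD, n = 2). Tapbp was thus above both TAP genes in each library. With exonic length it stood at 5.31 ± 2.03 TPM.

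Nlrc5 encodes the class I transactivator, a NOD-like receptor protein that acts through DNA-bound partners. Its span in the table, chr8:94472762-94527272 on the plus strand, starts well inside the RefSeq gene, which begins at 94434335, so fragments from the first part of that gene were not counted. It had 52 and 45 counts, or 0.643 and 0.731 TPM (mean 0.687 ± 0.0619, SD, n = 2). The 2 libraries were close. With exonic length Nlrc5 was at 0.884 ± 0.0459 TPM, above the means of Tap1 and Tap2 but within the spread of each. The counted spans hold 7488 of the 8120 exonic bases of Nlrc5 and 2491 of the 3442 of Tap2. The order of Nlrc5 and Tap2 on that scale is therefore not settled.

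From high to low with span length, the order was B2m, H2-K1, Tapbp, H2-D1, Tap1, Tap2 and Nlrc5. The values of Tapbp and H2-D1 overlapped over the 2 libraries, as did those of Tap1 and Tap2, while the other neighbours were separated in these libraries. With exonic length the last 3 genes, Nlrc5, Tap1 and Tap2, overlapped one another. All genes were measured in the same 2 libraries, and these orders are a description with no test.

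Among the other heavy chains, a small set stood beside the classical genes. Of 21 class I and class I-like heavy chains apart from H2-K1 and H2-D1, 8 were at or above 1 TPM. The highest was Cd1d1, which presents lipids, with 54.6 and 38.9 TPM. The Qa-region gene H2-Q4 followed at 33.0 and 21.7 TPM, next to H2-K1, to which its ratio was 0.776 in replicate 1 and 1.18 in replicate 2. H2-M5 had 24.7 and 11.4 TPM and H2-Q10 7.98 and 8.70 TPM, about the level of H2-D1 with span length. Mr1, which presents vitamin B metabolites, was the lowest of those with at least 10 counts, at 0.963 and 0.328 TPM. With exonic length Cd1d1 still led and H2-Q1 was the lowest.

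Of those 21 genes, 6 had no count in either library. For H2-M9 and H2-M10.1 no other gene overlapped on the strand. H2-Q6, H2-Q7, H2-T22 and H2-L were each overlapped over 99.7% to 100% of their span by another heavy chain gene of the table, and a 0 there says nothing about their level.

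Among the peptide supply genes, the immune catalytic subunits Psmb8 and Psmb9 were near 0, while the proteasome activator genes were detected. The immunoproteasome replaces 3 catalytic subunits of the proteasome after interferon exposure, and 2 of its genes, Psmb8 and Psmb9, flank Tap1. Psmb8 had 2 and 1 counts and Psmb9 had 3 and 1 counts. Their constitutive counterparts were higher, with Psmb8 at 0.0403 times Psmb5 in replicate 1 and 0.0849 times in replicate 2, and Psmb9 at 0.00252 and 0.00248 times Psmb6, with span length. Psmb10, the third immune subunit, had 28 counts in replicate 1 and 2 in replicate 2, or 0.171 and 0.0346 times its counterpart Psmb7 on the same scale. With exonic length these ratios were 0.0187 and 0.0394 for Psmb8, 0.00311 and 0.00306 for Psmb9, and 0.00723 and 0.00146 for Psmb10. The proteasome activator genes Psme1 (589 and 70 counts, 131 and 20.4 TPM) and Psme2 (165 and 41 counts, 30.4 and 9.91 TPM) were uneven between libraries. Of 12 peptide supply genes, 10 were at or above 1 TPM, with Psmb6 the highest mean with span length at 111 ± 60.3 TPM (SD, n = 2). In replicate 2 the trimming peptidase gene Tpp2 was above it, at 123 against 68.2 TPM. With exonic length Tpp2 had the highest mean, at 295 ± 61.2 TPM (SD, n = 2). Psmb7 was above Tpp2 in replicate 1 on that scale, at 393 against 251 TPM.

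The general folding factors of the endoplasmic reticulum were much more abundant than tapasin. Hspa5, the chaperone BiP, led the list with span length, at 2168 and 2186 TPM, while Canx led with exonic length (1430 ± 204 TPM, SD, n = 2). Calreticulin (Calr) had 1255 and 689 TPM, calnexin (Canx) 881 and 1138 TPM, and the disulfide isomerase Pdia3, which pairs with tapasin in the loading complex, 275 and 302 TPM. Calnexin was 191 and 406 times Tapbp in the 2 libraries with exonic length. Tapbpl, which encodes the tapasin relative TAPBPR, had 6 and 4 counts.

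Partners of NLRC5 at the promoter were mostly present at higher levels than Nlrc5. Of 12 class I transcription factor genes, 11 were at or above 1 TPM. The RFX subunit Rfx5 had 65.3 and 67.9 TPM and Rfxap 26.7 and 24.8 TPM. With exonic length Rfx5 was 20.4 and 18.7 times Nlrc5. The third subunit, Rfxank, had 26 counts in replicate 1 and 3 in replicate 2, or 0.950 and 0.136 TPM with exonic length, which bracket Nlrc5. Nfyb, which encodes an NF-Y subunit, was the highest gene of the list at 183 ± 16.0 TPM, and Irf2 was the lowest at 0.512 ± 0.0276 TPM (SD, n = 2), both with span length. With exonic length Nfyb still led, Irf2 was at 4.25 TPM and Rfxank was the lowest.

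All 10 genes of interferon receptors and signalling were at or above 1 TPM, from 1.83 ± 0.290 TPM for Ifngr2 to 39.1 ± 1.94 TPM for Ifnar1 (SD, n = 2) with span length. With exonic length Jak1 was the highest, at 79.1 ± 1.76 TPM (SD, n = 2). MHC class II, which presents to CD4 T cells and is the work of professional antigen-presenting cells, was low. Of 11 class II genes, 3 reached 1 TPM, led by H2-Ab1 with 3.16 and 0.143 TPM, and H2-Aa, H2-Ea-ps, H2-Oa, H2-Ob and H2-DMb2 had no count. The other two, H2-Eb1 (1.24 TPM) and H2-DMa (1.14 TPM), had means near those of Tap1 and Tap2, and with exonic length all 3 means were above those of Tap1, Tap2 and Nlrc5. Ciita, the class II counterpart of Nlrc5, was the lowest of those with at least 10 counts, with 16 and 9 counts.

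**Figure D2:**
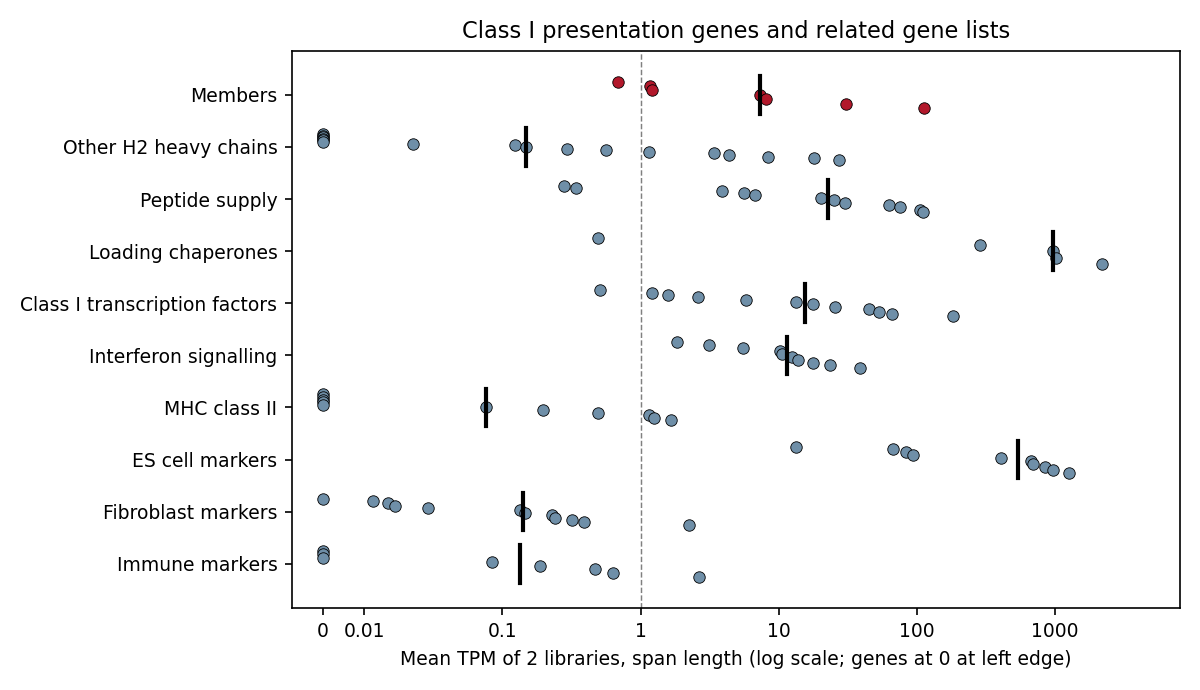
Mean TPM of 2 libraries with span length (log axis) for each gene of the lists, 1 point per gene. Vertical bars are list medians, the dashed line is 1 TPM and genes without counts are drawn at the left edge. The 7 class I presentation genes (top, red) have a median of 7.34 TPM and reach from 0.687 to 113 TPM, and class II genes and the fibroblast and immune markers lie mostly under 1 TPM.

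H2-K1 and H2-D1 bound the classical H-2 interval, chr17:33996011-35267497, which holds 89 genes of the table over 1.27 Mb, Tap1 and Tap2 among them. In it 47 genes were at or above 1 TPM and 16 had no count. Tapbp lies just outside, on the far side of H2-K1, and B2m and Nlrc5 are on other chromosomes. Levels along the interval were uneven, with class II genes near the foot close to Tap1 and Tap2 and with genes of other functions, such as the chromatin reader Brd2 (202 and 152 TPM), among the highest. The highest mean was that of 1110038B12Rik, with 350 and 89.0 TPM, while Brd2 was the highest in replicate 2. The lowest mean with at least 10 counts was that of BC051142, with 0.0653 and 0.0715 TPM (Hspa1a with exonic length). Beside the class II genes and H2-L, the genes without a count were Btnl2, Btnl4, Btnl5-ps, Btnl6, Ager, Prrt1, Cyp21a1, Ly6g5c, Aif1 and Tnf.

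**Figure D3:**
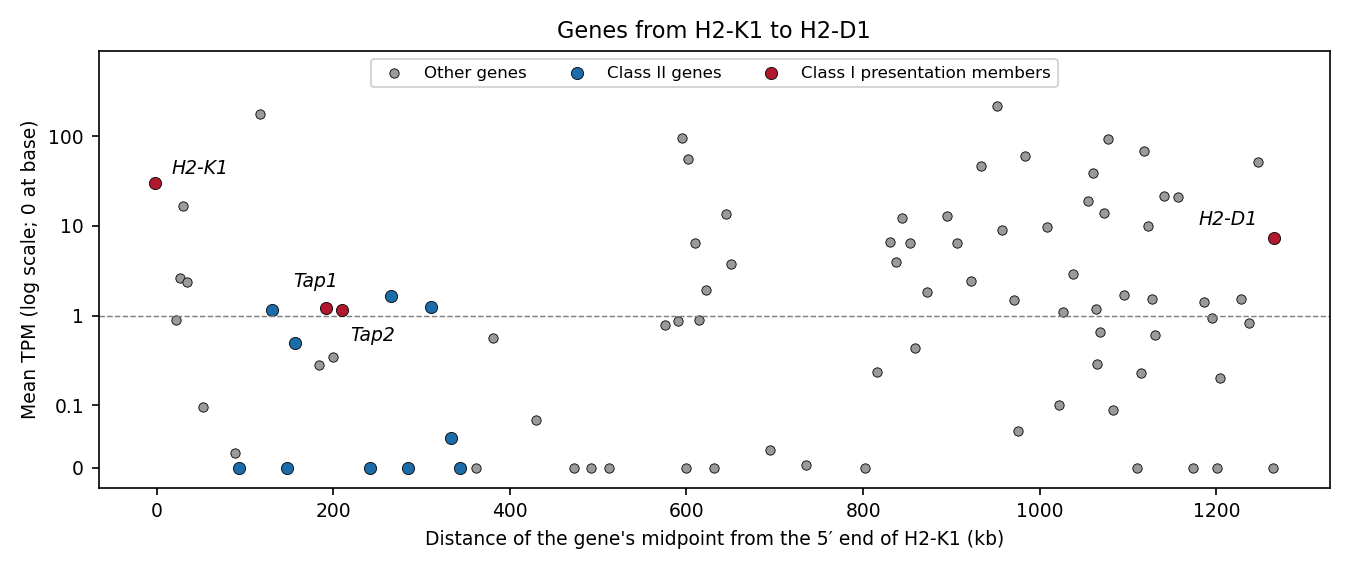
Mean TPM with span length (log axis, genes without counts at the base) of the 89 genes from H2-K1 to H2-D1, against the distance in kb of each gene's midpoint from the 5′ end of H2-K1. Red points are class I presentation genes, blue points class II genes and grey points others. Tap1 and Tap2 sit among class II genes, and H2-K1 stands above H2-D1.

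The 2 libraries did not weigh the genes alike. Each gene's pair of counts was tested against the ratio of the library totals with a two-sided exact binomial test, adjusted by the Benjamini-Hochberg method over 14536 genes with at least 10 counts. This test compares the libraries, not conditions, and nothing in the labels says that the replicates came from separate cultures. Its p-values cover counting error only. By this test 2 of the 7 genes differed and both were lower in replicate 2, where 60.8% of all genes tested differed, 45.7% being lower and 15.1% higher in replicate 2. The share depended on scaling, as given below for the GC trend.

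H2-K1 was lower in replicate 2, with a log2 ratio of -1.37 (adjusted p = 4.49e-16, exact binomial test). Tapbp was also lower there (log2 ratio -0.88, adjusted p = 5.3e-05, exact binomial test). Tap1 had a log2 ratio of -1.08 and did not pass (adjusted p = 0.0785, exact binomial test), with 32 counts in all. The log2 ratios of B2m (-0.11), H2-D1 (-0.28), Tap2 (0.47) and Nlrc5 (0.02) did not pass either. The median over all genes tested was -0.31.

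The difference between the libraries moved with GC content. A cubic trend fitted to 9243 genes on autosomes, each having no fewer than 50 counts per library, ran from above 0 in AT-rich genes to -0.76 at the GC content of Tapbp. B2m has 41.2% GC in its longest transcript and a trend value of 0.15, while the other 6 genes lie between 52.6% and 57.1% GC with trend values from -0.60 to -0.76. Tapbp at -0.88 was near its trend value of -0.76. H2-K1 at -1.37 was below its trend value of -0.68. Tap2 and Nlrc5 lay above theirs by 1.22 and 0.62. With the trend as the expected ratio, H2-K1 kept its call (-0.69, adjusted p = 0.000161, exact binomial test), Tapbp lost it (-0.12, adjusted p = 0.732, exact binomial test), and B2m (-0.26, adjusted p = 0.00142, exact binomial test) and Tap2 (1.22, adjusted p = 0.0283, exact binomial test) passed. In that setting 3 of the 7 genes differed, where 45.6% of all genes tested did. B2m was called in opposite directions by different scalings, lower from the GC trend but higher with DESeq2 size factors (log2 ratio 0.20, adjusted p = 0.011, exact binomial test).

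**Figure D4:**
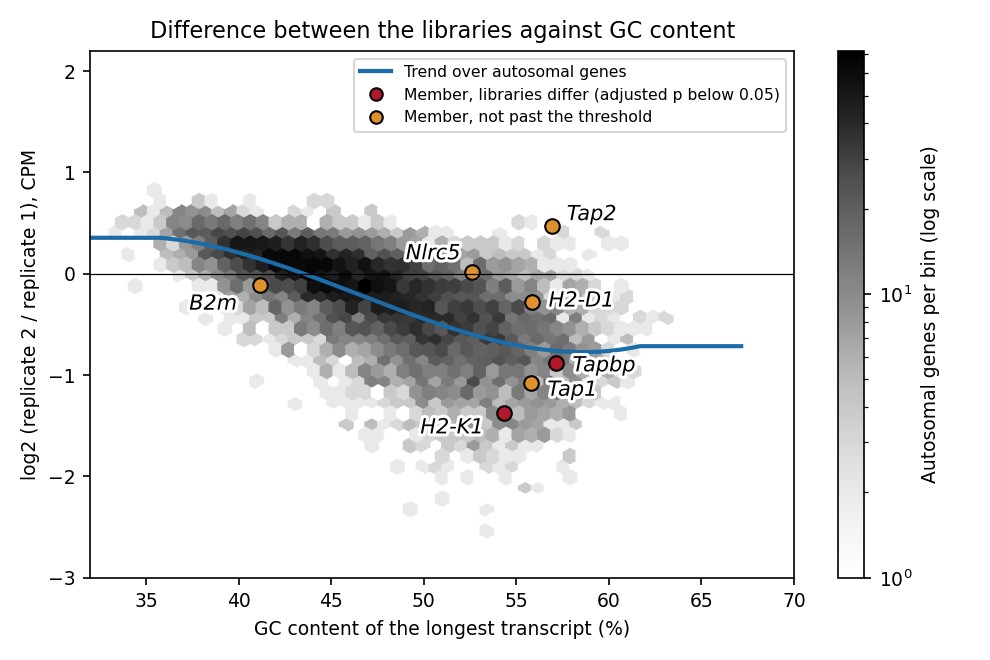
log2 ratio of replicate 2 to replicate 1 (CPM) against GC content of the longest transcript. Grey cells count the 9243 autosomal genes of the fit (log shading), the blue line is their trend, and the 7 class I presentation genes are red where the libraries differed and orange where the test was not passed. Tapbp lies near the line, H2-K1 below it, and Tap2 above it.

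Gene lists around class I gave the following counts, to be read against the 45.7% of all genes tested that were lower and the 15.1% that were higher. Of the 10 embryonic stem cell markers, 9 were lower in replicate 2 and 1 higher, or 6 and 3 with TMM scaling, and their part in the members' differences was not tested. Of 10 other heavy chains tested, 6 were lower in replicate 2 and none higher. Of 10 peptide supply genes tested, 6 were lower and 3 higher, and the 3 immune subunit and activator genes tested (Psmb10, Psme1 and Psme2) were all lower (log2 ratio -2.84 for Psme1). Of 5 loading chaperones, 2 were lower and 1 higher. Of 12 class I transcription factors, 4 were lower, Irf1 and Rfxank among them, and 2 higher. Of 10 interferon receptor and signalling genes, 6 were lower and none higher, and of 5 class II genes, 3 were lower and none higher. In the H-2 interval 32 of 51 genes tested (62.7%) were lower and none higher, with a median log2 ratio of -1.16 against -0.31 over all genes tested, and a median GC content of 55.5% against 48.7% over all genes.

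Scaling changed several of these splits. TMM scaling, which sets library sizes from the bulk of genes in place of the totals, shifted all log2 ratios up by 0.26 and gave 4203 genes lower and 4187 higher. Under it 4 other heavy chains, 2 interferon genes and 25 genes of the interval were lower, with 0, 2 and 1 higher. The loading chaperones and the class I transcription factors then had more genes higher (3 and 4) than lower (1 and 3), and 1 class II gene was lower. With the GC trend as the expected ratio, the corresponding counts were 3, 1 and 14 lower and 0, 2 and 7 higher, with 3106 lower and 3453 higher of 14399 genes tested. The 3 immune subunit and activator genes were lower under each of these settings.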

How the data were processed

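Messenger RNA was isolated with the Dynabeads mRNA DIRECT kit and libraries were made with an Illumina TruSeq stranded kit. The deposited values are fragment counts per gene, made by the authors with featureCounts 1.5.2 (per the file header) over whole transcript spans, strand-specific, on mm10 gene models; STAR 2.4.2a and Bowtie2 2.3.2 are named in the submitters' processing notes. Multiple assignment was not switched on, so fragments over overlapping genes went uncounted. Counts sum both alleles, and how many Cast fragments of the polymorphic heavy chains aligned is not known from these files. Each column was matched to a library by its name, which lacks a letter b of the sample description.

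TPM used the deposited length (the methods of the study name TPM for these data but no length) and exonic length from GENCODE M21 (98.2% of genes matched). Library differences used exact binomial tests (scipy 1.17.1) with a threshold of 0.05, and a pseudocount of 0.5 for log2 ratios. Alternatives used edgeR 4.0.16 for TMM and DESeq2 1.42.0 for size factors, in R 4.3.3. The binomial script was tested on simulated data. Promoters came from RefSeq and were aligned with Biopython 1.88. Intervals, floors and p-values cover counting error only.

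Named genes were the 7 members and, from each list, the highest, the lowest with at least 10 counts, those at 0 and partners of members, nonclassical heavy chains included. Further genes given in the lists (Psmb5, Psmb7, Psme1, Psme2, Tpp2, Irf1, Jak1, Brd2, Hspa1a, Pou5f1, Dppa5a, H2-Eb1, H2-DMa, Thy1 and Laptm5) were chosen after their values were seen. The members and lists were chosen with earlier results of these data known.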

Additional observations from a re-analysis of the deposited data

How the results depend on the processing

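Of 61 recomputed values, 44 kept their direction and call or, for levels, stayed within 1 SD and, for counts, within 1.5 times. Another 10 moved further, 1 call was lost and 2 were gained in the same direction. The other 4 turned in direction, 1 of them with a call gained as well. Not counted are 16 levels or ratios from 1 library, which with 2 libraries always lie within 1 SD and so say nothing of stability, and 7 CPM values, which are another unit. The log2 ratio of B2m turned from -0.11 to 0.15 with TMM scaling and to 0.20 with DESeq2 size factors, the last a call (adjusted p = 0.011, exact binomial test). That of H2-D1 turned from -0.28 to 0.030 with DESeq2 size factors and to 0.45 from the GC trend. H2-K1 was lower in replicate 2 in every alternative run. Of the 7 genes, 2 differed with TMM scaling, where 57.7% of all genes did, and without a filter (48.5%), 2 of the 6 tested with at least 10 counts in each library (65.2%), and 3 of 7 with DESeq2 size factors (57.8%) or the GC trend (45.6%). The ratio of H2-K1 to H2-D1 was 4.09 with span length, 5.10 with exonic length and 1.60 with the exonic bases of H2-D1 outside H2-L, an alternative chosen after seeing the data. Without 1 replicate it was 2.62 or 5.56 with span length. The number of genes at or above 1 TPM was 4 with exonic length and 5 without 1 replicate. The exonic length of Tap2 includes bases outside its counted span, so the count of 4 may be too low. An exonic length limited to genome-unique words was not run, and the share of words found in other transcripts stood in for it. No paired analysis was possible because only 1 group exists. With 9 to 52 counts per library, Tap1, Tap2, Nlrc5 and H2-D1 are the least precise.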
